A study of Homo sapiens with 6 samples.

Results

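The genes described here are 10 members of the Notch pathway in BT474 breast cancer cells: the receptors NOTCH1, NOTCH2 and NOTCH3, the ligands JAG1, JAG2, DLL1 and DNER, and the target genes HES1, HEY1 and HEY2. Every array probe whose gene name equals one of these symbols was taken, which gave 14 probes of the 58201 on the array, and each probe was followed apart over the 3 groups. The members were chosen with results of these same arrays known, so their values are given as a description, with no test. All 14 probes were among the 31857 that passed the filter on dim signals, meaning that in at least 1 group both arrays measured them well above background.

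BT474 is an established luminal breast cancer line that carries estrogen receptor and amplified HER2. The study asked what NR2F1-AS1, a long noncoding RNA transcribed next to the nuclear receptor gene NR2F1, does to these cells, and expressed the long variant 1 (BT474-Var1) or the short variant 4 (BT474-Var4) from pcDNA3.1 plasmids. The Control cells received pcDNA3.1 with no insert and are named MOCK in the labels. Each group had 2 arrays, replicates A and B, and all 3 groups grew in RPMI-1640 with 10% serum. Stably transfected populations grew from the few cells that survived transfection and selection, per the study's methods, and 2 empty plasmids are named there without a statement of which one the Control arrays hold. The methods place variant 1 in pcDNA3.1/Hygro(+) and variant 4 in pcDNA3.1-P2A-eGFP. Plasmid backbone and variant therefore cannot be told apart, and the Control plasmid can match the backbone of at most 1 line. Nothing states that A and B were separate cultures, so every error and p-value below measures the spread between these samples, which may be technical.

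Notch receptors sit in the cell membrane and are activated by ligands on neighbouring cells. Ligand binding exposes the receptor to ADAM proteases and then to gamma-secretase, and the released intracellular part enters the nucleus, joins the DNA-binding protein RBPJ and the coactivator MAML, and switches on genes such as those of the HES and HEY repressors. In the mammary gland the pathway takes part in the choice between luminal and basal cell fate.

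Between 47.6% and 57.5% of probes were well above background per array, no spot was saturated, and the correlation between the arrays of a group was 0.98 to 0.987 over all probes. All 9 luminal marker genes, among them KRT8, ESR1, GATA3 and ERBB2, were well above background on all 6 arrays. The markers of other cell types were mixed. Well above background on all arrays were 1 of 6 basal or myoepithelial genes (OXTR), 2 of 6 fibroblast genes (COL1A1 and PDGFRB), 1 of 4 endothelial genes (CDH5) and 3 of 5 leukocyte genes (CD14, ITGAM and PTPRC). Below it on all arrays were KRT5, ACTA2, COL1A2, COL3A1, LUM, KDR and TEK. Against Control, OXTR was 2.97-fold and COL1A1 2.05-fold higher in BT474-Var4. Of the KRT14 probes 1 of 2, not well above background in Control, exceeded it by at least 2.43-fold (BT474-Var1) and at least 1.94-fold (BT474-Var4). A basal MYH11 probe went the other way, at least 1.1-fold brighter in Control than in BT474-Var4 (adjusted p = 0.0686 in the limma fit). Luminal genes moved both ways in BT474-Var1 against Control, with EPCAM 1.58-fold lower and KRT19 1.54-fold higher. A DCN probe was well above background only in BT474-Var4, and the part of other cell types in the results was not tested. The transfected RNA checked the labels: NR2F1-AS1 probe A_19_P00320140 was well above background only in BT474-Var1, at least 15.1-fold over Control, and probe A_24_P51080 read 1.67 and 1.50 in BT474-Var4 against -6.05 and -6.35 in BT474-Var1 on the log2 scale used below. All arrays shared 1 slide, but both BT474-Var1 arrays lay in a different slide column from the other 4, so slide column and BT474-Var1 cannot be told apart.

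Sequences that help to read the results come first. HES1 and HEY2 are direct targets of the pathway, and their promoters show where the letters TGGGAA, the core that RBPJ binds, lie around the transcription start. Each stretch below runs from 250 bases before the start to 20 bases after it, 5′ to 3′ along the gene, from RefSeq on GRCh38.p14, with TGGGAA or its reverse complement TTCCCA in capitals; HES1 is at chr3:194135898-194136167 and HEY2 at chr6:125749382-125749651, both on the plus strand.
HES1: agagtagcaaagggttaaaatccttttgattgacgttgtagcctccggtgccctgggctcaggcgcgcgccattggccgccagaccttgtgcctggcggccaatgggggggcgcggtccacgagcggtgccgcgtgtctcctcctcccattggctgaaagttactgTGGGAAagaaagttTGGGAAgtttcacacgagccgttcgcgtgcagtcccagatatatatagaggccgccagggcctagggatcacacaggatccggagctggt
HEY2: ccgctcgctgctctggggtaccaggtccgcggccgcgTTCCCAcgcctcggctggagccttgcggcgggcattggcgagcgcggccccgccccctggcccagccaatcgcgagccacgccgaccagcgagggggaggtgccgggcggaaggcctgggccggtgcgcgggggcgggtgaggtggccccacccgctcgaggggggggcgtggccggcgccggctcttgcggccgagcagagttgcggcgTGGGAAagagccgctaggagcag
HES1 held TGGGAA at 2 places, beginning 84 and 70 bases before the start. HEY2 held TTCCCA beginning 213 bases before the start and TGGGAA beginning 3 bases before it. Among the 7 members with a RefSeq window, these 2 held the core on either strand and the other 5 did not, against 22.2% of all 35116 windows of that length. HEY1, DLL1 and DNER had no window, so nothing is known here of their promoters. The E-box CACGTG, which HES and HEY repressors can bind, was in none of the 7 and in 6.78% of all windows. A match in letters is a description and does not show binding.

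JAG2 is the other gene where the sequence matters, since its 3 probes gave 3 different patterns. The file lists both RefSeq transcripts of JAG2 for each probe. In hg19 the probes lie at chr14:105622147-105622206, chr14:105618531-105618590 and chr14:105608674-105608733 on the minus strand, so the last of them is nearest to the 3′ end of the gene. The first 2 probes are printed whole and the last one by its first 30 of 60 bases.
A_22_P00008365: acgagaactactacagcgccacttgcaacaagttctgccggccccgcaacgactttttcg
A_22_P00023038: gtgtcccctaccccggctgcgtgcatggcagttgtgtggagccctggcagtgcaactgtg
A_23_P106024: gcgtttgttaccagaggttgtgcactgttt

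Levels below are log2 signals after each array's 75th percentile was subtracted, so 0 is the 75th percentile of that array's probes and each unit is a doubling. They may be compared between groups for 1 probe but not between probes, because probes differ in how brightly they bind. Differences are log2 differences from the fit, with their standard error (SE) over n = 2 arrays a group. Each probe's levels are shown in the plot of member levels by array, and its differences in the plot of differences with intervals.

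**Figure D1:**
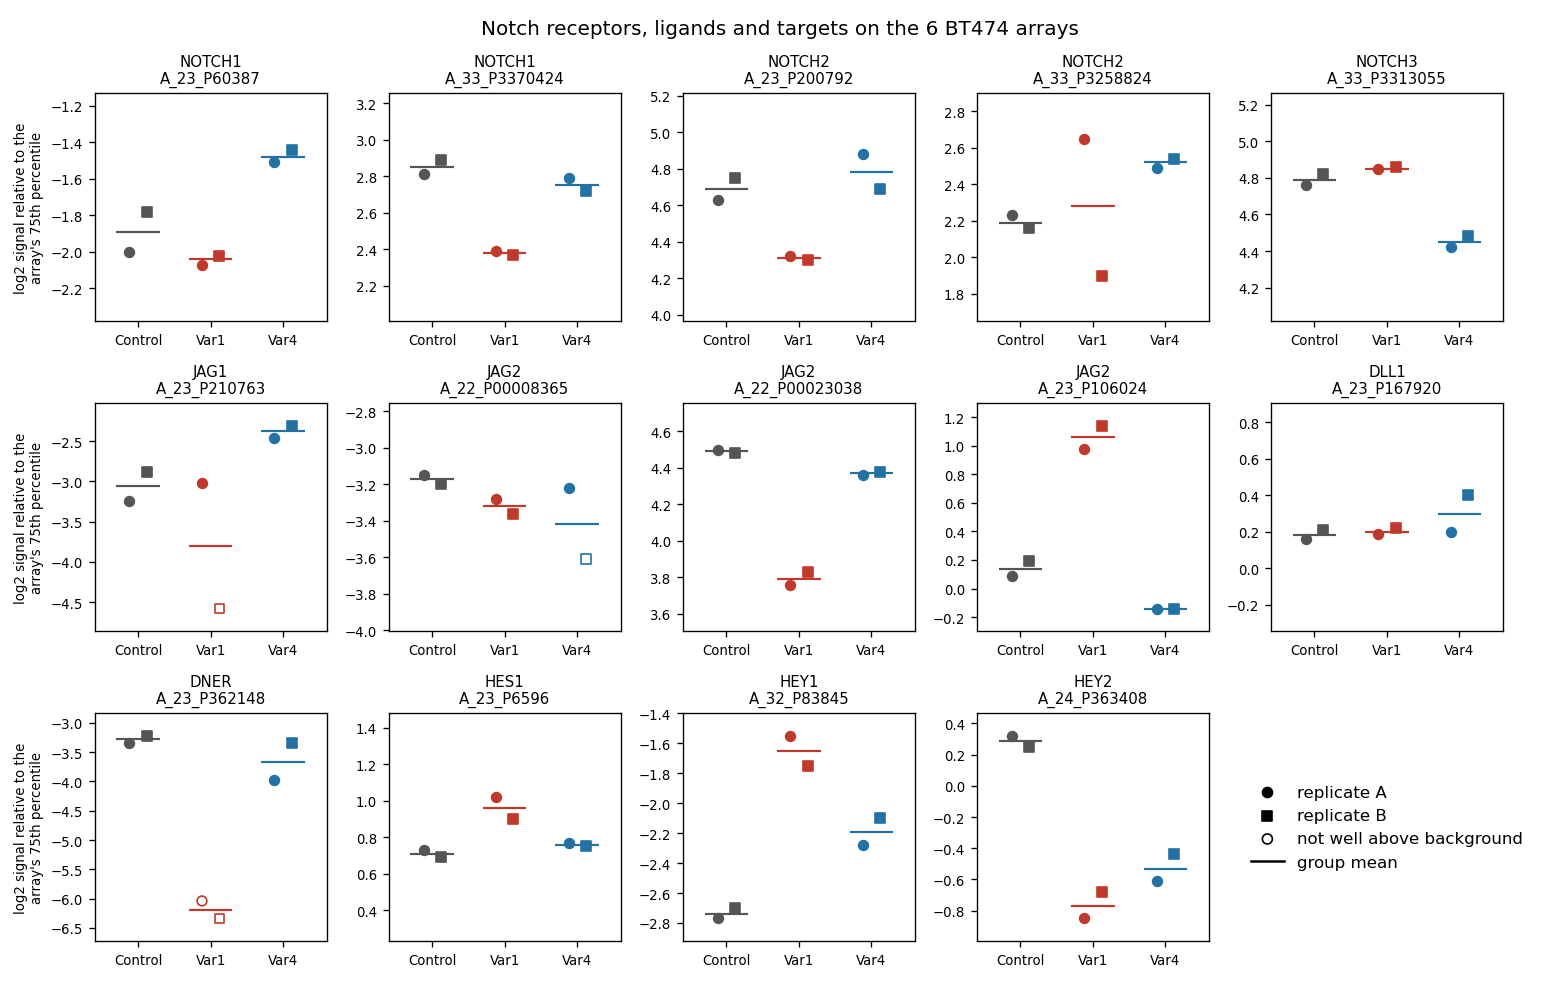
Each panel is 1 of the 14 member probes; the vertical axis is the log2 signal relative to the array's 75th percentile (at least 1 unit is shown, and axes differ between panels), points are the 2 arrays of Control, BT474-Var1 and BT474-Var4, lines are group means and open symbols are arrays where the probe was not well above background. The mean of HEY1 is -2.74 in Control and -1.65 in BT474-Var1, while that of HEY2 is 0.29 and -0.77, and the 3 JAG2 panels differ from each other.

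On their brighter probes NOTCH1 and NOTCH2 were lowest in BT474-Var1, and NOTCH3 was lowest in BT474-Var4. NOTCH1, the best studied receptor, was measured by 2 probes. Probe A_33_P3370424 (chr9:139390523-139390582, minus strand, hg19) read 2.81 and 2.89 in Control, 2.39 and 2.37 in BT474-Var1, and 2.79 and 2.72 in BT474-Var4. BT474-Var1 thus lay below both other groups with no overlap, at -0.46 (SE 0.06) against Control, and BT474-Var4 differed from Control by -0.09 (SE 0.06). The dimmer NOTCH1 probe A_23_P60387 (chr9:139389764-139389823) read -2.00 and -1.78 in Control, -2.07 and -2.02 in BT474-Var1, and -1.51 and -1.44 in BT474-Var4. Here it was BT474-Var4 that stood apart, 0.41 (SE 0.09) above Control, while BT474-Var1 differed from Control by -0.15 (SE 0.09). On both NOTCH1 probes BT474-Var4 exceeded BT474-Var1, by 0.37 (SE 0.06) and 0.57 (SE 0.09).

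NOTCH2 gave 1 stable probe and 1 variable probe. Probe A_23_P200792 (chr1:120454858-120454917) read 4.63 and 4.75 in Control, 4.32 and 4.30 in BT474-Var1, and 4.88 and 4.69 in BT474-Var4. The BT474-Var1 arrays were the 2 lowest, at -0.38 (SE 0.09) from Control, and the BT474-Var4 and Control arrays overlapped. Probe A_33_P3258824 (chr1:120539807-120539866) is also annotated to a transcript of NOTCH2NLA, a near-identical copy of the start of NOTCH2, so its signal cannot be given to 1 gene. Its arrays read 2.23 and 2.16 in Control, 2.65 and 1.90 in BT474-Var1, and 2.49 and 2.54 in BT474-Var4. The 2 BT474-Var1 arrays lay on either side of Control (SD 0.53), and no difference between groups exceeded 0.32 (SE 0.26).

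NOTCH3, a receptor known from vascular smooth muscle and from breast cancer lines, was lowest in BT474-Var4. Its probe (chr19:15270489-15270548) read 4.76 and 4.82 in Control, 4.85 and 4.86 in BT474-Var1, and 4.42 and 4.48 in BT474-Var4. The BT474-Var4 arrays were the lowest, -0.34 (SE 0.05) from Control and -0.40 (SE 0.05) from BT474-Var1, while BT474-Var1 differed from Control by 0.06 (SE 0.05).

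Among the ligands JAG2 carried the widest differences on bright probes, and in BT474-Var1 its probes did not share a direction. Probe A_22_P00023038 read 4.50 and 4.48 in Control, 3.76 and 3.83 in BT474-Var1, and 4.36 and 4.38 in BT474-Var4. BT474-Var1 was lower than Control by a difference of -0.69 (SE 0.05), a 1.62-fold step, and BT474-Var4 lay between at -0.11 (SE 0.05). The probe nearest to the 3′ end, A_23_P106024, read 0.09 and 0.19 in Control, 0.98 and 1.14 in BT474-Var1, and -0.14 and -0.14 in BT474-Var4. Here BT474-Var1 was the highest group, 0.92 (SE 0.08) or 1.89-fold above Control, and BT474-Var4 the lowest, at -0.28 (SE 0.08) from Control and -1.20 (SE 0.08) from BT474-Var1. The most 5′ of the 3 probes, A_22_P00008365, was dim, from -3.15 to -3.61 over the 6 arrays, and 1 BT474-Var4 array was not well above background. It differed by -0.15 (SE 0.14) in BT474-Var1 and by -0.24 (SE 0.14) in BT474-Var4 against Control. No single level of JAG2 RNA can therefore be given for these cells. In BT474-Var1 against Control the 2 brighter probes kept opposite signs under quantile scaling, under normexp background correction and without each array in turn. The means of all 3 probes were lower in BT474-Var4 than in Control.

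JAG1, the other Jagged ligand, was close to background. Its probe (chr20:10619061-10619120) read -3.25 and -2.88 in Control, -3.02 and -4.58 in BT474-Var1, and -2.46 and -2.31 in BT474-Var4, and the lower BT474-Var1 array was not well above background. The BT474-Var4 arrays were the 2 highest, but the BT474-Var1 arrays differed so much that the difference of 1.41 between the variants had an SE of 0.54. DLL1, a Delta ligand, differed little: its probe (chr6:170591642-170591701) read 0.16 and 0.21 in Control, 0.19 and 0.22 in BT474-Var1, and 0.20 and 0.40 in BT474-Var4. All 3 groups overlapped, and the 95% interval of the BT474-Var1 difference from Control ran from -0.20 to 0.24.

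DNER, a Notch ligand best known from neurons, was measured only in Control and BT474-Var4. Its probe (chr2:230222909-230222968) read -3.35 and -3.22 in Control and -3.98 and -3.35 in BT474-Var4, all well above background but dim. In BT474-Var1 it read -6.04 and -6.34 and was not well above background on either array. Against the dimmest probe that counts as measured on each BT474-Var1 array, DNER was at least 1.67-fold brighter in Control and at least 1.28-fold brighter in BT474-Var4. The fitted difference of -2.90 compares measured signal with a value under background and is no bound. Under normexp correction with an offset of 50, which draws dim signals together, that difference was -0.20.

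**Figure D2:**
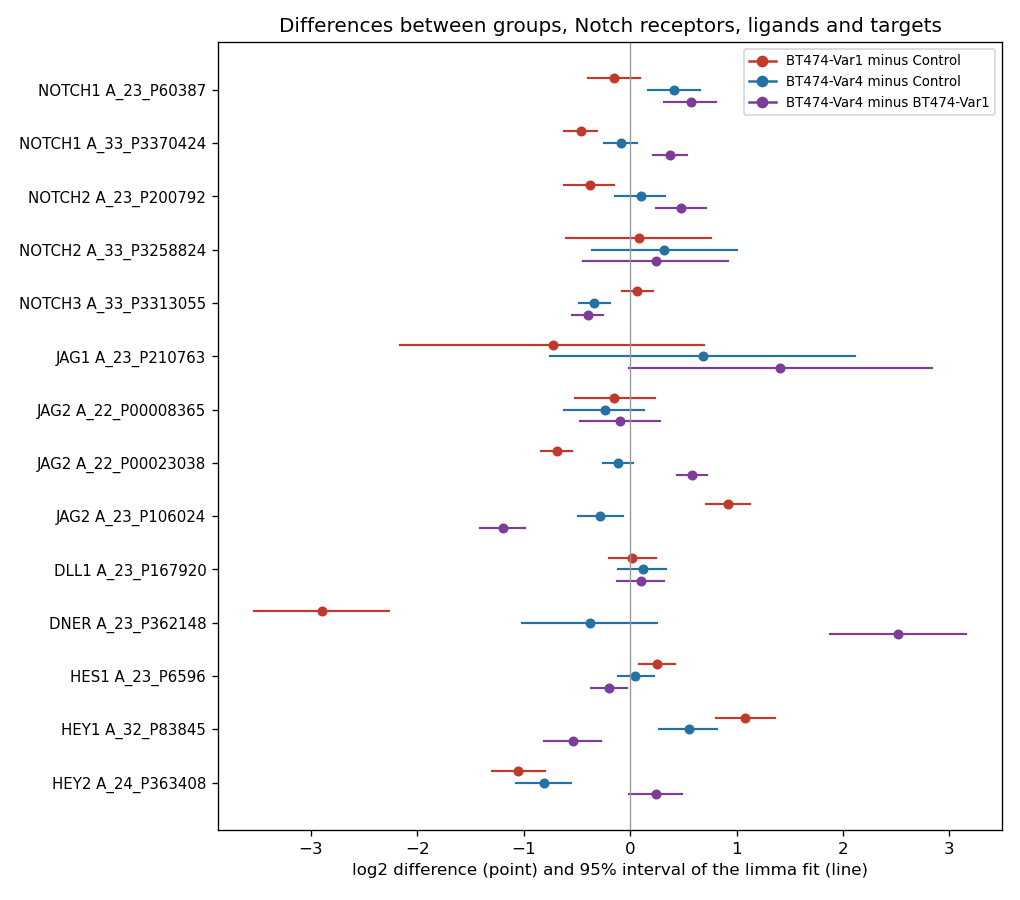
Log2 differences of the 14 member probes (horizontal axis) for the 3 comparisons, each a point with the 95% interval of the fit; the vertical line is 0. HEY2 lies left of 0 and HEY1 right of 0 in both comparisons with Control, and the JAG2 probes A_22_P00023038 and A_23_P106024 lie on opposite sides for BT474-Var1.

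The 3 target genes each followed their own course. HES1, a repressor that Notch induces in many tissues, read 0.73 and 0.69 in Control, 1.02 and 0.90 in BT474-Var1, and 0.77 and 0.75 in BT474-Var4 (chr3:193854276-193854463, plus strand, hg19). The BT474-Var1 arrays were the 2 highest, 0.25 (SE 0.06) or 1.19-fold above Control, and BT474-Var4 was 0.05 (SE 0.06) above Control without overlap.

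HEY1 and HEY2 encode related repressors, and they went opposite ways in both transfected lines. HEY1 read -2.77 and -2.70 in Control, -1.55 and -1.75 in BT474-Var1, and -2.28 and -2.10 in BT474-Var4. No groups overlapped, and the order was Control, BT474-Var4, BT474-Var1, with differences from Control of 1.08 (SE 0.10, 2.12-fold) in BT474-Var1 and 0.55 (SE 0.10, 1.46-fold) in BT474-Var4. HEY2 (chr6:126082004-126082063, plus strand) read 0.32 and 0.25 in Control, -0.85 and -0.68 in BT474-Var1, and -0.61 and -0.44 in BT474-Var4. It was lower in both lines, by differences of -1.05 (SE 0.10, 2.07-fold) in BT474-Var1 and -0.81 (SE 0.10, 1.76-fold) in BT474-Var4, and the 2 transfected groups differed by 0.24 (SE 0.10). HEY1 is dim, and under normexp correction its differences were 0.36 and 0.11, with the same sign. The promoters printed above hold the RBPJ core in HES1 and in HEY2 alike, while HEY1 had no window. HES1 and HEY2 differed from Control in opposite directions in BT474-Var1, and a part of RBPJ in this was not tested.

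Counted over probes at an adjusted p under 0.05, 3 of the 14 member probes were higher and 5 lower in BT474-Var1 than in Control, where 14.1% of all tested probes were higher and 20.3% lower. In BT474-Var4 against Control, 2 were higher (HEY1 and the dim NOTCH1 probe) and 2 lower (HEY2 and NOTCH3), beside 9.87% and 14.3% of all probes. Between the variants 5 were higher and 3 lower in BT474-Var4, beside 20.4% and 20.7%. Since the members were selected on these arrays, nothing is read from these counts. The median difference over the 14 probes was -0.15, -0.02 and 0.24 in the 3 comparisons, beside -0.04, -0.08 and -0.03 over all tested probes. The first 2 comparisons share the Control arrays. Under normexp correction the BT474-Var4 count became 1 higher and 3 lower. Leaving out any 1 array of a comparison lowered its member count, in proportion most for BT474-Var4 against Control. It lowered the count over all tested probes as well, so nothing about the members is read from this.

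The rest of the pathway was taken from a list of 75 genes sorted by role, of which 66 had a tested probe, 96 probes in all. In BT474-Var1 against Control 12 of these probes rose (12.5%, beside 14.1% of all tested probes) and 20 fell (20.8%, beside 20.3%). In BT474-Var4 against Control 14 rose (14.6%, beside 9.87%) and 13 fell (13.5%, beside 14.3%). Between the variants 24 were higher in BT474-Var4 (25%, beside 20.4%) and 16 lower (16.7%, beside 20.7%). These shares lay near those of all probes, and so did the medians. The median differences were -0.09, -0.06 and 0.04. These counts rest on few arrays: leaving out any 1 of the arrays compared lowered them, and lowered the counts over all tested probes as well.

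**Figure D3:**
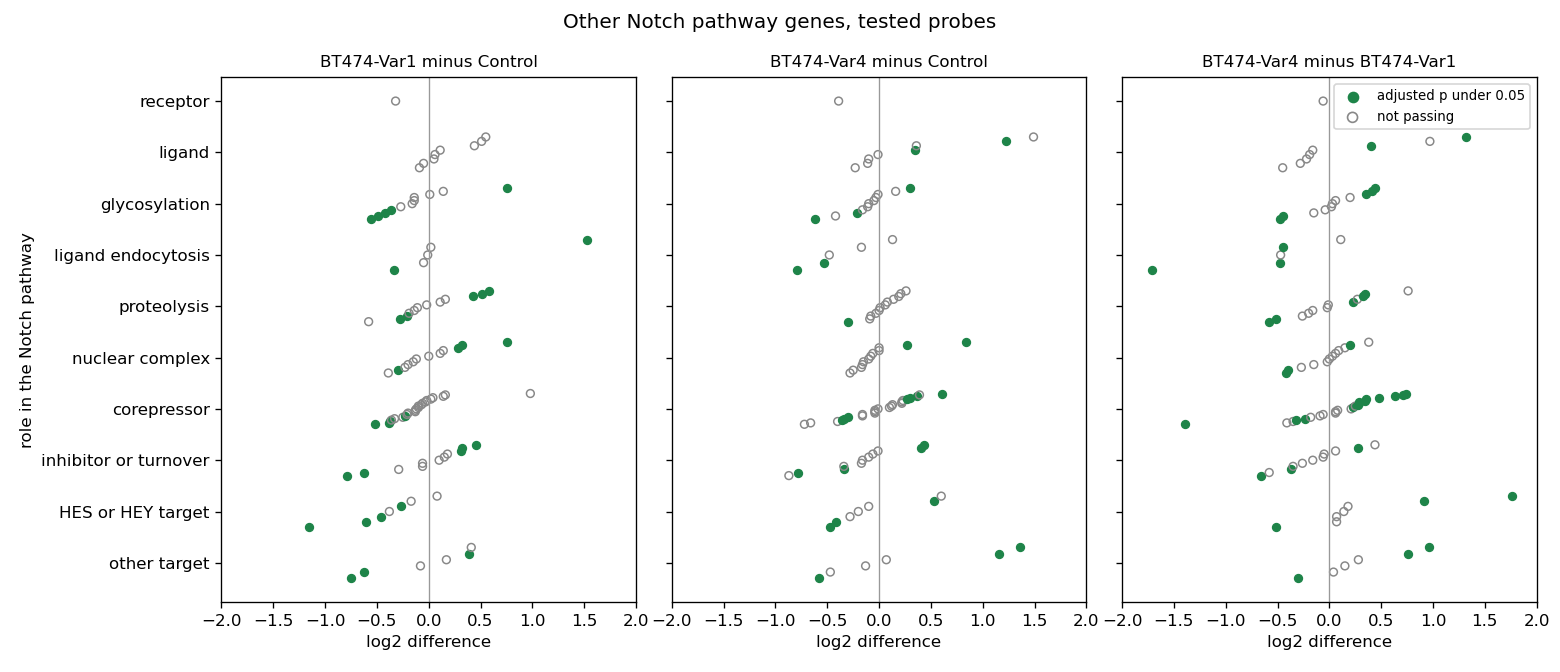
Log2 differences (horizontal axis) of the 96 tested probes of the other Notch pathway genes, by role (rows), for the 3 comparisons; filled points passed an adjusted p under 0.05. The core proteolysis and nuclear complex genes lie mostly within 1 unit of 0, while MIB2 stands at 1.53 in BT474-Var1 and NOV at 1.22 in BT474-Var4.

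Of the 12 tested probes of the nuclear complex, 3 rose and 1 fell in BT474-Var1 (beside 14.1% and 20.3% of all probes) and 2 rose in BT474-Var4 (beside 9.87%). RBPJ, the DNA-binding partner of the receptor fragment, had 2 bright probes and neither passed in any comparison; A_23_P29994 read 4.08 and 4.19 in Control, 4.33 and 4.16 in BT474-Var1, and 3.90 and 4.04 in BT474-Var4. MAML1, its coactivator, had no passing probe either, with differences between -0.15 and 0.06. ADAM10 and ADAM17, the proteases of the first cut, and NUMB, which promotes receptor removal, did not pass in any comparison, and ADAM17 differed from Control by -0.02 (SE 0.09) in BT474-Var1 and -0.03 (SE 0.09) in BT474-Var4.

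Of the 12 tested proteolysis probes, 3 were higher (25%, beside 20.4% of all tested probes) and 2 lower (16.7%, beside 20.7%) in BT474-Var4 than in BT474-Var1. These were subunits of gamma-secretase, the enzyme of the second cut. Both APH1A probes were lower, at -0.51 (adjusted p = 0.0244) and -0.58 (adjusted p = 0.0127). APH1B was higher by 0.34 (adjusted p = 0.0223) and PSEN2 by 0.23 (adjusted p = 0.0326). The APH1A, APH1B and PSEN2 calls were named after their values were seen, and all ended without the dim filter. PSEN2 was lost under 10 alternatives, among them quantile scaling, the replicate block and each array left out. APH1A probe A_23_P12329 was lost under 6 and APH1B under 5, among them each array of this comparison left out. APH1A probe A_23_P930 was lost under 4, among them either BT474-Var1 array or BT474-Var4 replicate B left out. NCSTN, the subunit that receives the substrate, read 4.59 and 4.62 in Control, 4.46 and 4.54 in BT474-Var1, and 4.78 and 4.87 in BT474-Var4, so that BT474-Var4 was the highest group without overlap. The difference between the variants was 0.32 (SE 0.06, adjusted p = 0.018), and neither line passed against Control. Leaving out BT474-Var1 replicate A or BT474-Var4 replicate B, quantile scaling, or no dim filter ended the call; over all alternatives the highest adjusted p was 0.102.

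Among genes of ligand handling, the RNA of MIB2, an E3 ubiquitin ligase that promotes uptake of ligands, differed between the variants. Its tested probe read -0.32 and -0.44 in Control, 1.19 and 1.11 in BT474-Var1, and -0.59 and -0.52 in BT474-Var4. The BT474-Var1 arrays stood far above the other 4, with a rise of 1.53 (SE 0.07, 2.89-fold, adjusted p = 0.00269) over Control, and BT474-Var4 was lower than BT474-Var1 by a difference of -1.71 (SE 0.07, adjusted p = 0.0012). Of the 5 tested probes for this role, 1 rose and 1 fell in BT474-Var1 and 2 fell in BT474-Var4, too few to set against the shares of all probes (14.1% higher and 20.3% lower in BT474-Var1, 14.3% lower in BT474-Var4). The latter, named after their values were seen, were NEURL1 at -0.53 (SE 0.05, adjusted p = 0.00729) and a NEURL1B probe at -0.79 (SE 0.07, adjusted p = 0.00654), for 2 further ubiquitin ligases of Notch ligands. Both calls ended without the dim filter, and that of NEURL1 also without Control replicate B (highest adjusted p 0.0678 and 0.0542).

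NOV, a secreted protein also called CCN3 that can bind Notch receptors, rose in BT474-Var4. It read -0.47 and -0.31 in Control, -0.46 and -0.50 in BT474-Var1, and 0.84 and 0.83 in BT474-Var4. The BT474-Var4 arrays alone were high, by 1.22 (SE 0.07, 2.34-fold, adjusted p = 0.00332) over Control and by 1.32 (SE 0.07, adjusted p = 0.00141) over BT474-Var1. None of the 8 tested ligand probes of the list passed in BT474-Var1 against Control, and 2 rose in BT474-Var4, where 34.4% of all tested probes passed in the first comparison and 9.87% rose in the second.

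Of the Fringe enzymes, which add sugars to the receptor and so set its preference for ligands, LFNG and RFNG went opposite ways. MFNG passed in neither comparison with Control, at -0.27 (SE 0.12) in BT474-Var1 and -0.42 (SE 0.12) in BT474-Var4. These genes were named after their values were seen. LFNG probe A_23_P8452 read 5.38 on both Control arrays, 4.84 and 4.80 in BT474-Var1, and 5.18 and 5.16 in BT474-Var4. It fell in BT474-Var1 by 0.56 (SE 0.05, adjusted p = 0.0047) and in BT474-Var4 by 0.21 (SE 0.05, adjusted p = 0.0428). A second LFNG probe differed by -0.14 and -0.11 and did not pass. RFNG rose in BT474-Var1, by 0.75 (SE 0.07, adjusted p = 0.00493), and in BT474-Var4, by 0.30 (SE 0.07, adjusted p = 0.0413). The BT474-Var1 calls of both genes passed under all 16 alternatives, whereas each BT474-Var4 call passed under 6 and ended without any 1 of the 6 arrays (highest adjusted p 0.237 for LFNG and 0.183 for RFNG). Over all 11 tested probes of glycosylation genes, 1 rose and 4 fell in BT474-Var1 (beside 14.1% and 20.3% of all probes), and 1 rose and 2 fell in BT474-Var4 (beside 9.87% and 14.3%).

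NRARP, a feedback inhibitor that Notch itself induces, fell in both lines. Its tested probe read 4.62 and 4.61 in Control, 4.01 and 3.98 in BT474-Var1, and 3.85 and 3.82 in BT474-Var4. No groups overlapped, and the differences from Control were -0.62 (SE 0.05, 1.54-fold, adjusted p = 0.00414) in BT474-Var1 and -0.78 (SE 0.05, 1.72-fold, adjusted p = 0.00373) in BT474-Var4. Both calls held under all 16 alternatives, with adjusted p-values up to 0.0421 and 0.0434.

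Other HES family genes did not share a direction either. HES2 probe A_23_P304716 read -2.24 and -2.69 in Control, -3.33 and -3.92 in BT474-Var1, and -1.79 and -1.94 in BT474-Var4. It fell in BT474-Var1 by 1.16 (SE 0.26, adjusted p = 0.0294), and BT474-Var4 exceeded BT474-Var1 by 1.76 (SE 0.26, adjusted p = 0.00887). The brighter HES2 probe kept that order, at 0.91 (SE 0.13, adjusted p = 0.00846) between the variants. Against Control it did not pass in BT474-Var1, at -0.38 (SE 0.13, adjusted p = 0.0867). In BT474-Var4 it was at 0.53 (SE 0.13, adjusted p = 0.0484). That call was lost under 10 of 16 alternatives, among them no dim filter, the replicate block and each array left out. The fall in BT474-Var1 was -0.17 under normexp correction, and the call passed under 8 of 16 alternatives; leaving out Control A or B, BT474-Var1 B, or BT474-Var4 A or B ended it (highest adjusted p over the alternatives 0.115).

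The 7 tested probes of other HES and HEY genes came from only 3 genes. Of these probes 4 fell in BT474-Var1 (57.1%, beside 20.3% of all tested probes) and 0 rose. The 4 falls came from 2 genes, HES2 and HES6, so the share counts probes of 1 gene more than once. In BT474-Var4, 1 rose and 2 fell (beside 9.87% and 14.3%). The difference of these shares was not tested. HES6 and HES4 were named after their values were seen. HES6, which counteracts HES1, fell in BT474-Var1 on 3 of 4 probes, by 0.27 to 0.61, and in BT474-Var4 on 1 probe, by 0.47 (SE 0.06, adjusted p = 0.0106). Only the widest of the 3 falls, on probe A_33_P3265359, passed under all 16 alternatives; the other two passed under 11 and 5, and both ended without any 1 array of the comparison (highest adjusted p 0.083 and 0.163). HES4 fell in BT474-Var4 by 0.42 (SE 0.06, adjusted p = 0.0157) and differed from Control by 0.08 (SE 0.06) in BT474-Var1. The BT474-Var4 calls of both genes ended without Control A or B, BT474-Var4 B or the dim filter (highest adjusted p 0.0843 for HES6 and 0.102 for HES4). Probes of HES3, HES5, HES7 and HEYL were too dim to be tested.

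**Figure D4:**
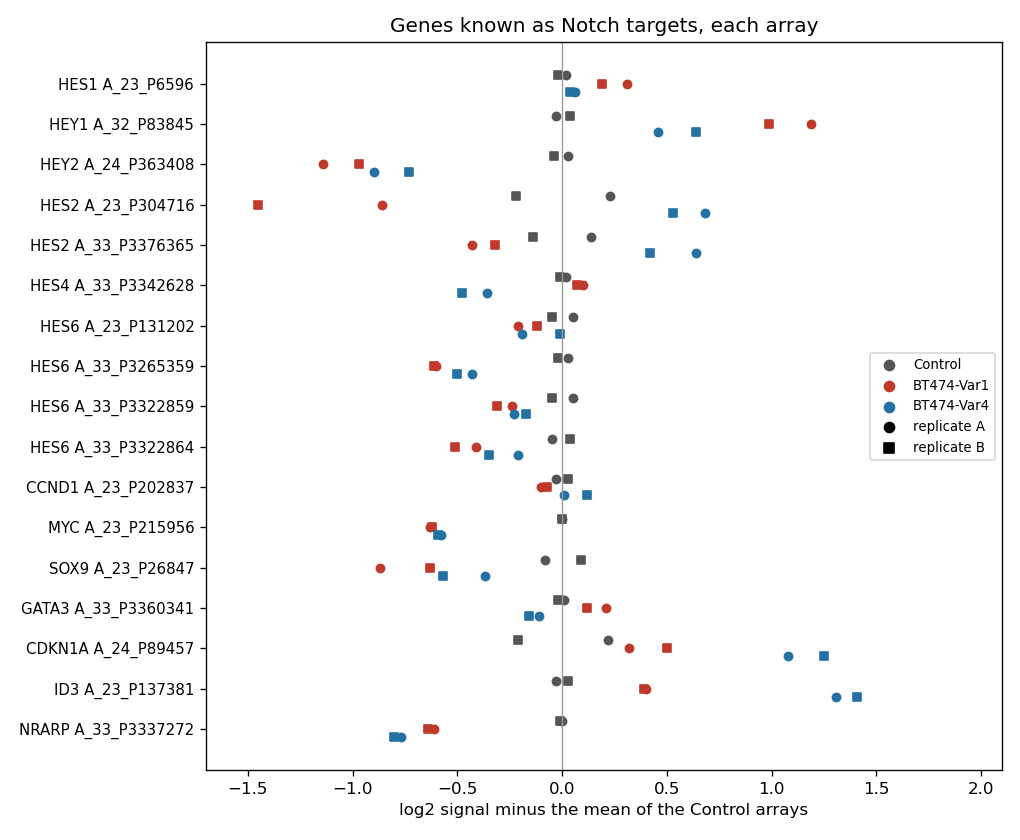
Log2 signal of each array minus the mean of the Control arrays (horizontal axis) for 17 tested probes of 13 genes. These are genes of the HES and HEY families and others listed as Notch targets. Points are replicates A and B of Control, BT474-Var1 and BT474-Var4. NRARP, MYC and HEY2 lie left of the Control arrays in both transfected lines, and HEY1 and ID3 lie right of them.

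Of targets outside the HES and HEY families, ID3 showed the widest shift. This inhibitor of basic helix-loop-helix factors, also a target of BMP signalling, read 3.36 and 3.42 in Control, 3.79 and 3.78 in BT474-Var1, and 4.70 and 4.80 in BT474-Var4. In BT474-Var4 it rose by 1.36 (SE 0.06, 2.56-fold, adjusted p = 0.00265). In BT474-Var1 the rise was 0.39 (SE 0.06, adjusted p = 0.0121), and leaving out any 1 array of that comparison, or the dim filter, ended this smaller call (highest adjusted p 0.0805). CDKN1A, the cell cycle inhibitor p21, was dim and rose in BT474-Var4 by 1.16 (SE 0.17, adjusted p = 0.0164). That difference was 0.28 under normexp correction, and it passed under 11 of 16 alternatives; leaving out Control replicate B or either BT474-Var4 array ended the call (highest adjusted p 0.0774). Over the 6 tested probes of these targets, 1 rose and 2 fell in BT474-Var1 (beside 14.1% and 20.3% of all probes). In BT474-Var4, 2 rose and 1 fell (beside 9.87% and 14.3%). SOX9, named after its values were seen, fell in BT474-Var1 by 0.75 (SE 0.13, adjusted p = 0.0149). That call ended without the dim filter, without Control A, Control B or BT474-Var1 A, and under analysis of variance with Benjamini-Hochberg adjustment. In BT474-Var4 SOX9 differed by -0.47 (SE 0.13) and did not pass. CCND1 and GATA3 did not pass against Control. MYC, a growth regulator that Notch induces in some tumours, was also named after its values were seen. It read 4.99 on both Control arrays, 4.36 and 4.37 in BT474-Var1, and 4.41 and 4.40 in BT474-Var4, and fell in both lines, by 0.62 (SE 0.05, adjusted p = 0.00395) and 0.58 (SE 0.05, adjusted p = 0.00539); without the dim filter the latter did not pass (adjusted p = 0.0579).

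Corepressors that keep Notch targets silent in the absence of signal were measured by 23 probes, of which 10 were higher (43.5%, beside 20.4% of all tested probes) and 3 lower (13%, beside 20.7%) in BT474-Var4 than in BT474-Var1. The difference of these shares was not tested. TLE1, a Groucho family corepressor, gave 4 of the 10 and 1 of the 3. Its brightest tested probe, A_23_P135239, read 3.17 and 3.15 in Control, 2.78 and 2.81 in BT474-Var1, and 3.44 and 3.42 in BT474-Var4, so that BT474-Var1 was lowest and BT474-Var4 highest, 0.63 apart (SE 0.05, adjusted p = 0.00246). The dim TLE1 probe A_33_P3210180, annotated to another mRNA, went the other way and was not well above background on either BT474-Var4 array. It was at least 1.27-fold brighter in BT474-Var1 than in BT474-Var4 (adjusted p = 0.0306), and the call passed under 8 of 15 alternatives and ended without any 1 array of this comparison (highest adjusted p 0.114).

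Among the member probes, JAG2 probe A_23_P106024 had the widest range of group means with every group above background, 1.20. The genes whose 6 levels ran most like it, of 3900 candidate probes with a range of at least 1, were GOLGA8A (Pearson r = 0.999), CCDC144NL, PPIAL4G, LOC440910 and MXI1 (each r = 0.996). GOLGA8A read 0.46 and 0.53 in Control, 1.45 and 1.57 in BT474-Var1, and 0.13 and 0.17 in BT474-Var4. The 6 points are 3 groups of 2 arrays, so these correlations are given as a description.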

How the data were processed

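Total RNA of 6 BT474 samples was labelled with Cy3 and hybridised to single-colour Agilent arrays. The authors quantified spots with Agilent Feature Extraction 11.5.1.1, which subtracts background, and deposited the intensity per spot; the file headers give annotation on hg19 and a design number other than the one in the methods. The deposited value table holds log2 intensity after a shift to each array's 75th percentile, per the study's methods, and its medians run from -3.65 to -3.28. Its columns matched the recomputed values within a median of 0.00716, so scale, centring and direction are known; it served as an alternative.

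Here outlier spots were removed, log2 processed signals were averaged per probe, and the 75th percentile over probes was subtracted. Probes that both arrays of 1 or more groups measured well above background were fitted with limma 3.58.1 in R 4.3.3, with a mean per group over all 6 arrays (3 residual degrees of freedom) and Benjamini-Hochberg adjustment over 31857 probes; passing means an adjusted p under 0.05. The script was tested on simulated data. The alternatives were normexp (offset 50), quantile scaling, the deposited table, no dim filter, a dim filter over all arrays, a replicate block, a trended robust fit, only the groups compared, one-way analysis of variance as in the methods, and each array left out. The number of arrays limits the precision. Named beside the members were pathway genes with an adjusted p under 0.05 and a log2 difference of at least 1, and RBPJ, MAML1, NCSTN, ADAM10, ADAM17, NUMB and NRARP; where only some probes of a gene met the rule, those were named. A result that the rule also covers is not reported here. Members and lists were chosen with earlier results of these data known. Bounds ("at least") set the brighter group's mean against the dimmest probe well above background on each array of the dimmer group. Promoters are from RefSeq on GRCh38.p14, whose coordinates are never mixed with those of hg19; whether a probe lies in an exon or a UTR is not analysed here.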

Additional observations from a re-analysis of the deposited data

How the results depend on the processing

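Counts of passing probes depended on the processing, while directions of called values did not: of the member and named pathway differences that passed, none reversed under any of the 16 alternatives. Without the dim filter the pathway counts were 6, 3 and 10 in place of 32, 27 and 40 (BT474-Var1 against Control, BT474-Var4 against Control, BT474-Var4 against BT474-Var1) and the member counts 5, 0 and 3 in place of 8, 4 and 8, with 58079 probes tested; that 0 stands beside 5 member probes at an unadjusted p under 0.05 in limma. For BT474-Var4 against Control the pathway count was 41 with normexp and 42 with the trended robust fit. Over all tested probes 34.2% and 35.9% passed there, in place of 24.2%. One-way analysis of variance with Benjamini-Hochberg adjustment gave 21 pathway probes for BT474-Var1 and 2 member probes for BT474-Var4 against Control; at an unadjusted p it gave 38, 39 and 49 pathway probes. Over all probes it passed 8370, 5177 and 9970, the block 8751, 4907 and 11146, and no dim filter 2669, 720 and 5117, in place of 10958, 7710 and 13116.

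Leaving out each array in turn, where a lone array is assumed to vary like the other groups, gave 8 to 24, 5 to 19 and 19 to 32 pathway probes and 6 to 7, 0 to 4 and 5 to 8 member probes. With the replicate letter as a block, the pathway counts were 25, 16 and 32 and the member counts 6, 3 and 8. The deviations of A from B correlated between groups at -0.0124, 0.0451 and -0.0154. No effect shared by the letters was thus seen, but such values cannot show whether samples were handled in pairs. Dim probes (HEY1, JAG1, DNER, HES2, CDKN1A) lost most of their size under normexp. Signal over background limits JAG1 and DNER, and the groups of 2 arrays limit all differences. The causes were not tested.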
